A study of Mus musculus with 6 samples.

Results

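The genes described here encode the Wnt ligands, their cell-surface receptors and the secreted proteins that bind or block them, together with a few intracellular members of the same pathway. They were taken by symbol from a table of gene counts: every Wnt, Fzd, Sfrp, Dkk and Rspo gene with a number, plus Lrp5, Lrp6, Axin2, Wif1, Frzb, Tcf7l2 and Ctnnb1. This gave 49 of the 40428 features in the table, of which 19 were Wnt ligands, 10 Frizzled receptors, 2 LRP co-receptors, 4 R-spondins, 4 Dickkopf proteins, 6 secreted Wnt binders (the Sfrp proteins, Frzb and Wif1) and 3 intracellular genes. The remaining feature, Rspo4os, is an antisense transcript that matched the same spelling.

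RNA from whole subcutaneous white adipose tissue (WAT) of 6 C57BL/6J mice was sequenced. The 3 controls were flox/flox for Nampt, the gene of the NAD-producing enzyme nicotinamide phosphoribosyltransferase. The 3 ANKO mice, the adipocyte-specific Nampt knockout, had Nampt flox alleles and an adiponectin-Cre transgene, whose promoter is active in adipocytes, so other cells of the depot kept the gene. All mice lived at room temperature and ate regular chow; their age is not given in the sources used here, nor whether the controls carried Cre.

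Wnt proteins are secreted lipid-modified ligands. They bind a Frizzled receptor together with the co-receptor LRP5 or LRP6, which stops the destruction of beta-catenin and lets it act with TCF and LEF factors on target genes; other Wnt proteins act through cell polarity or calcium signals. Secreted proteins tune this step: Sfrp proteins and Wif1 bind Wnt ligands, Dickkopf proteins occupy the LRP co-receptors, and R-spondins keep Frizzled receptors on the cell surface. In fat, active beta-catenin signalling is known to hold precursor cells back from becoming adipocytes.

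Among these genes 1 passed the test, Sfrp2, which rose in ANKO tissue. With 40 of the 49 members having enough counts to be tested, that is 1 higher (2.5%) and 0 lower, against 94 higher (0.488%) and 212 lower (1.10%) of all 19272 features tested with edgeR's quasi-likelihood test at an adjusted p under 0.05. A further 7 members, Sfrp1, Sfrp4, Wif1, Wnt6 and the receptors Fzd4, Fzd7 and Fzd3, differed at an unadjusted p under 0.05 only. The genes of beta-catenin and of the LRP co-receptors and the feedback gene Axin2 differed by little between the groups, and their values are given below. Counts over the tested members are descriptions, since the members and the gene lists were chosen with earlier results of these data known.

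Library totals were 19748962 to 23860596 counts, and counts scaled to library size by TMM are given as CPM. Nampt stood at 83.6, 93.0 and 87.0 CPM in controls 1 to 3 and at 48.6, 50.2 and 47.0 CPM in ANKO 1 to 3 (log2 fold change -0.85, SE 0.0776, adjusted p = 0.00416), so it fell. Of 12 adipocyte markers all were detected and 4 fell (Adipoq, Plin1, Cfd and Retn), where 1.10% of all features were called lower. The list summed to 12984 to 19524 CPM in controls and 5344 to 7997 CPM in ANKO. Cfd alone weighed heavily on these sums, with a mean of 6970 CPM in controls and 1148 CPM in ANKO. Slc2a4 went the other way (log2 fold change 0.15, adjusted p = 0.875). The libraries stood apart in 2 other tissues' markers. Skeletal muscle markers summed to 3581 to 19312 CPM in controls and 287 to 36567 CPM in ANKO, and mammary and skin epithelial markers to 202 to 1384 CPM in controls and 626 to 949 CPM in ANKO, lowest in control 3. In bulk tissue, fewer cells of a type and less RNA per cell cannot be told apart.

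The 3 members with the smallest p were Sfrp2, Wnt6 and Fzd4, and the windows around their start sites are printed for that reason. Of these only Sfrp2 passed the test. Each runs from 250 bases before to 50 after the RefSeq start (GRCm38.p6, plus strand, 5′ to 3′), with matches to a motif in capitals: the TCF/LEF core CTTTGA, the CCAAT box CCAAT and the GC box GGGCGG, all searched on both strands.
Sfrp2 (chr3:83766071-83766370): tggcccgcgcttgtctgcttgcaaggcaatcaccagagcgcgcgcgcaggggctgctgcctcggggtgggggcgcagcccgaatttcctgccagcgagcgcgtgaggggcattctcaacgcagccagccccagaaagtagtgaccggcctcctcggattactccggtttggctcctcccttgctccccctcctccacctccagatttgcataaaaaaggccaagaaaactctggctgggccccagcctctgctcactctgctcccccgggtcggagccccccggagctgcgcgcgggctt
Wnt6 (chr1:74771642-74771941): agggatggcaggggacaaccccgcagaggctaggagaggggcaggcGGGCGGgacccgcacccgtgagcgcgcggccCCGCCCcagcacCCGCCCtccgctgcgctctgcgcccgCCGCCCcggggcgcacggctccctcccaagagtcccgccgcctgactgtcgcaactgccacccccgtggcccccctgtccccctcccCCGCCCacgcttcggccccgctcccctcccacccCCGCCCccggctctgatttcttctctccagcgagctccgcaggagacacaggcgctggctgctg
Fzd4 (chr7:89404116-89404415): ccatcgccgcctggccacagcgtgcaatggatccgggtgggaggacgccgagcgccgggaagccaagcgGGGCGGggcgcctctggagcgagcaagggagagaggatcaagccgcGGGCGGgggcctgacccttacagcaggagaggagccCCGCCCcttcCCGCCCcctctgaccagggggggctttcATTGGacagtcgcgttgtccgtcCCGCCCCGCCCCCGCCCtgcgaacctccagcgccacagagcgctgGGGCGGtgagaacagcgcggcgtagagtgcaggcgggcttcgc

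The Sfrp2 window held none of the 3 motifs, that of Wnt6 held 6 GC boxes, and that of Fzd4 held 8 GC boxes, some of them overlapping, and 1 CCAAT box. None of the 3 windows held the TCF/LEF core. RefSeq gave 37 windows for 32 of the members, several genes having more than 1 start. The TCF/LEF core was in 5 of these 37 windows (13.5%; those of Dkk1, Frzb, Fzd1, Wnt11 and Wnt5b) and in 16% of all 32851 windows of this length. The CCAAT box was in 35.1% of the member windows and 37.4% of all, and the GC box in 75.7% of the member windows and 35.7% of all. Member windows were rich in G and C, with a median of 70% against 52.7%, and held a median of 29 CpG pairs against 7. A match is a description of letters, not of binding.

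Of the 6 secreted Wnt binders, 1 passed the test, Sfrp2. For 4 the groups did not overlap, with ANKO higher, which 9.19% of all features had. Among these 4, Wif1 reached the minimum level of the filter in all 3 ANKO libraries but in only 2 controls. Frzb, not among the 4, reached it in 3 controls and 2 ANKO libraries. Sfrp2 (chromosome 3, 83766321 to 83774316) encodes a secreted Frizzled-related protein, which carries a Frizzled-like Wnt-binding domain and is made by stromal cells. It stood at 28.5, 30.6 and 27.1 CPM in controls 1, 2 and 3 and at 52.9, 43.8 and 61.2 CPM in ANKO 1, 2 and 3. Every ANKO library lay above every control library. The mean rose from 28.7 ± 1.81 to 52.6 ± 8.73 CPM (SD, n = 3), which is 1.83-fold (log2 fold change 0.87, SE 0.13, 95% confidence interval 0.57 to 1.17, adjusted p = 0.0203). Per kilobase of exon it was by far the most abundant of the secreted binders, at 13.3 CPM per kilobase in controls and 24.4 in ANKO. An antisense gene, Gm26771, shares 347 of the 2153 exon bases of Sfrp2 and had 4 to 29 counts per library against 525 to 1318 for Sfrp2; without a stated strand setting, reads from the shared bases cannot be told apart. Exons of Ctnnb1, Fzd5, Fzd6, Wnt5a, Wnt7b, Wnt11, Axin2 and Rspo3 also overlap a gene on the opposite strand. The Sfrp2 call depended on the libraries and on the model: the adjusted p was 0.0646 with a replicate block, 0.0716, 0.0659 and 0.0715 without control 1, 2 or 3 and 0.0622 and 0.0675 without ANKO 1 or 3, and Sfrp2 stayed past the threshold only without ANKO 2 (adjusted p = 0.0234). The log2 fold change was 0.75 to 0.99 over these 6 fits.

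Sfrp1, a close relative of Sfrp2, stood at 5.74, 11.04 and 6.75 CPM in controls and 26.3, 15.03 and 12.6 CPM in ANKO. The groups did not overlap, and ANKO 1 was the highest library. The fold was 2.30 with a wide error (log2 fold change 1.20, SE 0.353, interval 0.36 to 2.04, adjusted p = 0.202); DESeq2 called it (adjusted p = 0.0104). Sfrp4 was at 15.2, 14.2 and 9.12 CPM in controls and 23.4, 16.5 and 17.7 CPM in ANKO, again without overlap (log2 fold change 0.58, SE 0.219, adjusted p = 0.309). Wif1, which encodes a Wnt inhibitory factor of another protein family, was scarce. Its values were 0.613, 1.06 and 0.103 CPM in controls (14, 21 and 2 counts) and 1.76, 1.99 and 1.63 CPM in ANKO (42, 46 and 35 counts), with a log2 fold change of 1.59 (SE 0.596, adjusted p = 0.305). Single control libraries weighed on this value: the log2 fold change of Wif1 was 1.12 without control 3, the lowest, and 2.27 without control 2, the highest.

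Sfrp5, known as an adipokine that binds Wnt5a, did not separate the groups, at 8.54, 6.75 and 7.78 CPM in controls and 10.4, 10.01 and 6.78 CPM in ANKO (log2 fold change 0.24, interval -0.23 to 0.70). Frzb, the remaining member of the Sfrp family, had the opposite sign, with 0.788, 0.907 and 1.39 CPM in controls and 0.840, 0.433 and 0.558 CPM in ANKO (log2 fold change -0.74, SE 0.44, adjusted p = 0.557). The 6 binders together summed to 23.2, 24.4 and 20.9 CPM per kilobase in controls and 42.6, 33.9 and 39.98 in ANKO. Sfrp2 made up 57.1% to 60.2% of that sum in controls and 57.6% to 71.2% in ANKO, so most of the gap between the sums lay in Sfrp2.

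**Figure D1:**
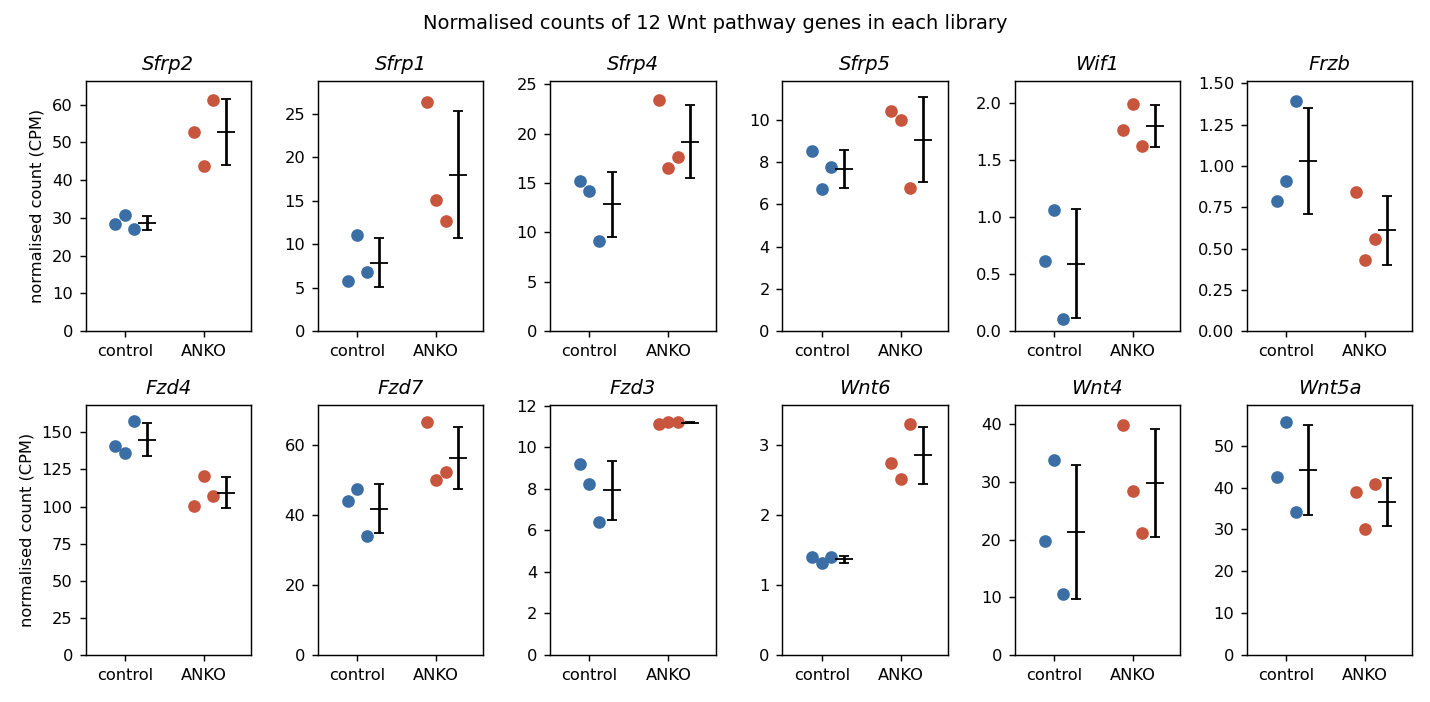
Normalised counts (CPM, linear axes from 0) of 12 members in each library: points are single mice (blue control, red ANKO), and the bar beside them is the mean with SD over 3 mice. Sfrp2, Sfrp1, Sfrp4, Wif1, Fzd7, Fzd3 and Wnt6 have every ANKO point above every control point, Fzd4 has every ANKO point below, and Sfrp5, Frzb, Wnt4 and Wnt5a overlap.

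Preadipocytes and fibroblasts are the cells best known for making Sfrp proteins, and their 16 markers summed to 6801, 8550 and 7516 CPM in controls and 9753, 6807 and 10980 CPM in ANKO. These sums, most of which came from Col3a1 and Col1a1, overlapped between the groups. None of the 16 passed the test, while 12 had a log2 fold change above 0. At an unadjusted p under 0.05, 3 were higher and 0 lower, against 6.03% and 6.90% of all features. The log2 fold change was below 0 for Thy1 (-0.24), F3 (-0.25), Col15a1 (-0.20) and Dpp4 (-0.03). Dcn and Lum did not overlap between the groups, with ANKO higher, which 9.19% of all features had. The one with the smallest p was the matrix proteoglycan Dcn, at 304, 336 and 281 CPM in controls and 556, 467 and 412 CPM in ANKO (log2 fold change 0.64, adjusted p = 0.0639). Dcn lay close to the threshold and was called with upper-quartile scaling (adjusted p = 0.0499), with no scaling beyond library size (0.0463), with no low-count filter (0.0142) and by DESeq2 (0.000515). It was not called without any 1 of the 6 libraries (adjusted p 0.0869 to 0.164). Macrophage markers summed to 641 to 705 CPM in controls and 850 to 1094 CPM in ANKO, with 3 of 10 higher. The part of these cells in the values of Sfrp2 was not tested.

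Of 4 Dickkopf genes 2 were tested. Dkk3, a divergent member of the family, stood at 7.58, 11.1 and 5.10 CPM in controls and 10.8, 8.23 and 11.6 CPM in ANKO (log2 fold change 0.36, SE 0.282, adjusted p = 0.681). Dkk2 was at 5.34, 1.36 and 3.25 CPM in controls and 6.64, 4.42 and 3.07 CPM in ANKO (log2 fold change 0.50, interval -0.66 to 1.66). Both overlapped between the groups. Dkk4 had 8, 11 and 7 counts in controls and 4, 4 and 0 in ANKO and Dkk1 0 to 6 counts, too few for the test.

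The R-spondins were all scarce. Rspo1 had the highest level, 0.488 ± 0.277 CPM per kilobase in controls and 0.786 ± 0.504 in ANKO (SD, n = 3), and its groups overlapped. Rspo3, which is known from vascular and stromal cells, was at 0.613, 0.655 and 0.412 CPM in controls and 0.168, 0.173 and 0.465 CPM in ANKO (log2 fold change -1.06, interval -2.41 to 0.29). Rspo4 rested on 1 library, with 8, 6 and 14 counts in controls and 4, 12 and 44 in ANKO. Its log2 fold change of 0.98 (adjusted p = 0.727) turned to -0.40 without ANKO 3 and to -0.15 with the skeletal muscle markers as a covariate. Rspo2 had 0 to 14 counts per library and was not tested, and the antisense transcript Rspo4os had 1 count in all.

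Among the Wnt ligands 14 of 19 were tested and 0 passed in either direction. At an unadjusted p under 0.05, 1 was higher (7.14%), near the 6.03% of all features, and 0 were lower, against 6.90%. Limma-voom likewise called none and DESeq2 called 1, Wnt6. The log2 fold change was above 0 for 12 of the 14, against 50.1% of all features, and its median was 0.21; for Wnt2, Wnt2b, Wnt10b and Wnt16 of these the sign turned when 1 library was left out. Wnt6 (chromosome 1, 74771892 to 74785322), a ligand known to restrain adipocyte formation, stood at 1.40, 1.31 and 1.39 CPM in controls and 2.73, 2.51 and 3.30 CPM in ANKO. All ANKO libraries lay above the controls, whose values were close together, and the fold was 2.08 (log2 fold change 1.054, SE 0.252, interval 0.47 to 1.63, adjusted p = 0.104; DESeq2 adjusted p = 0.0297). These levels rest on 26 to 32 counts per control library and 58 to 71 per ANKO library.

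The ligands highest per kilobase were Wnt4 and Wnt5a. Wnt4, which acts in the branching of mammary ducts among other tissues, had 19.7, 33.8 and 10.6 CPM in controls and 39.8, 28.5 and 21.1 CPM in ANKO, or 5.09 and 7.11 CPM per kilobase as group means. Its groups overlapped, and its log2 fold change of 0.48 (SE 0.462, adjusted p = 0.763) was 0.17 without control 3 and 0.97 without control 2. Wnt5a, the best known ligand of the beta-catenin-independent branch, had 42.5, 55.7 and 34.3 CPM in controls and 39.0, 30.0 and 40.8 CPM in ANKO (log2 fold change -0.27, interval -0.72 to 0.18, adjusted p = 0.649). Per kilobase it stood at 5.64 and 4.68 CPM. The order of Wnt4 and Wnt5a was therefore not the same in every library: Wnt5a was the higher per kilobase in controls 1 and 3 and in ANKO 3, and Wnt4 in the other 3. As a share of all ligand counts per kilobase, Wnt5a made up 20.04%, 21.7% and 20.1% in controls and 13.6%, 12.6% and 17.9% in ANKO. This share was lower in each ANKO library than in any control. The smaller shares of Wnt6 and Wnt1 were higher in each ANKO library than in any control. Wnt6 made up 1.82% to 2.91% in controls and 3.40% to 5.16% in ANKO, and Wnt1 0.452% to 0.747% and 0.804% to 1.20%. These shares were not tested.

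After these came Wnt7b, Wnt2, Wnt5b, Wnt11 and Wnt2b, with group means of 1.96 to 3.30 CPM per kilobase. Wnt11, another ligand of the beta-catenin-independent branch, was at 8.41, 8.21 and 7.73 CPM in controls and 10.8, 11.2 and 8.83 CPM in ANKO. The groups did not overlap, but the interval of the log2 fold change reached below 0 (0.34, interval -0.01 to 0.69, adjusted p = 0.398). Wnt2 varied more among the ANKO mice (8.78, 4.16 and 8.60 CPM) than among controls (5.96, 7.31 and 6.29 CPM). Wnt2b differed by less than its spread, at 9.01 ± 0.753 and 9.54 ± 1.57 CPM. Wnt10b, the ligand most studied as a brake on adipocyte formation, stood at 4.16, 3.48 and 5.57 CPM in controls and 6.34, 4.59 and 3.86 CPM in ANKO (log2 fold change 0.17, interval -0.45 to 0.78, adjusted p = 0.868). Wnt9a was at 3.87 ± 0.671 and 4.42 ± 0.464 CPM. Wnt16 (1.26 and 1.33 CPM), Wnt10a (1.453 and 1.93 CPM) and Wnt8b (0.918 and 0.715 CPM) also overlapped between the groups.

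Several ligand genes lie next to each other. Wnt6 and Wnt10a are 6193 bases apart on chromosome 1 in the same orientation, Wnt10b and Wnt1 are 11706 bases apart on chromosome 15 and point away from each other, and on chromosome 11 Wnt3a and Wnt9a are 16175 bases apart and Wnt9b and Wnt3 are 24328 bases apart, also pointing away from each other. In controls the neighbours Wnt6 and Wnt10a were at like levels and Wnt10b and Wnt1 were not: Wnt10b had 1.29 CPM per kilobase and Wnt1 0.160, and Wnt6 had 0.624 and Wnt10a 0.589. Wnt1 was at 0.482, 0.353 and 0.309 CPM in controls and 0.882, 0.866 and 0.558 CPM in ANKO, without overlap (log2 fold change 1.00, interval -0.05 to 2.04, adjusted p = 0.417), while the log2 fold change of Wnt10b beside it was 0.17. In the other tested pair the log2 fold changes were 1.054 for Wnt6 and 0.41 for Wnt10a; the difference within a pair was not tested. The ligands too low for the test were Wnt3 (4 to 12 counts per library), Wnt9b (0 to 20), Wnt3a (0 to 6), Wnt7a (0 to 3) and Wnt8a (0 to 2). Wnt7a and Wnt8a had no count in any ANKO library, which at 3 counts over the 3 libraries allows up to 0.0441 CPM, counting error only.

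Wnt4, Wnt5b and the receptor Fzd10 were lowest in control 3, the library with the least epithelial RNA. Many other members were lowest there too. These were Sfrp2, Sfrp4, Wif1, Wnt1, Wnt7b, Wnt9a, Wnt11, Fzd3, Fzd6, Fzd7, Dkk3 and Ctnnb1. The 15 epithelial markers summed to 783, 1384 and 202 CPM in controls and 949, 820 and 626 CPM in ANKO, none of them was at 0 in all libraries, and the keratin Krt8 alone ran from 44.8 CPM in control 3 to 506 CPM in control 2. Wnt5b was at 7.09, 7.21 and 1.91 CPM in controls and 9.16, 8.97 and 6.69 CPM in ANKO, and Fzd10 at 6.57, 7.66 and 2.99 CPM in controls and 7.48, 4.03 and 4.79 CPM in ANKO. Without control 3 the log2 fold change of Wnt5b was 0.22 in place of 0.61 and that of Fzd10 -0.38 in place of -0.08. Wnt7b moved less, from 11.9 CPM in control 3 to 18.2 CPM in ANKO 1 (log2 fold change 0.23, adjusted p = 0.644). The stem cell receptor Lgr5, which binds R-spondins and was picked out after its values were seen, had 5.34, 5.95 and 0.515 CPM in controls and 12.5, 11.7 and 7.85 CPM in ANKO. Control 3 was also at the end of other lists. It had the highest adipocyte sum (19524 CPM) of all libraries. It had the lowest sums of macrophage markers (641 CPM) and of mural and smooth muscle markers (977 CPM). The part of RNA from epithelial or other cells in these values was not tested.

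**Figure D2:**
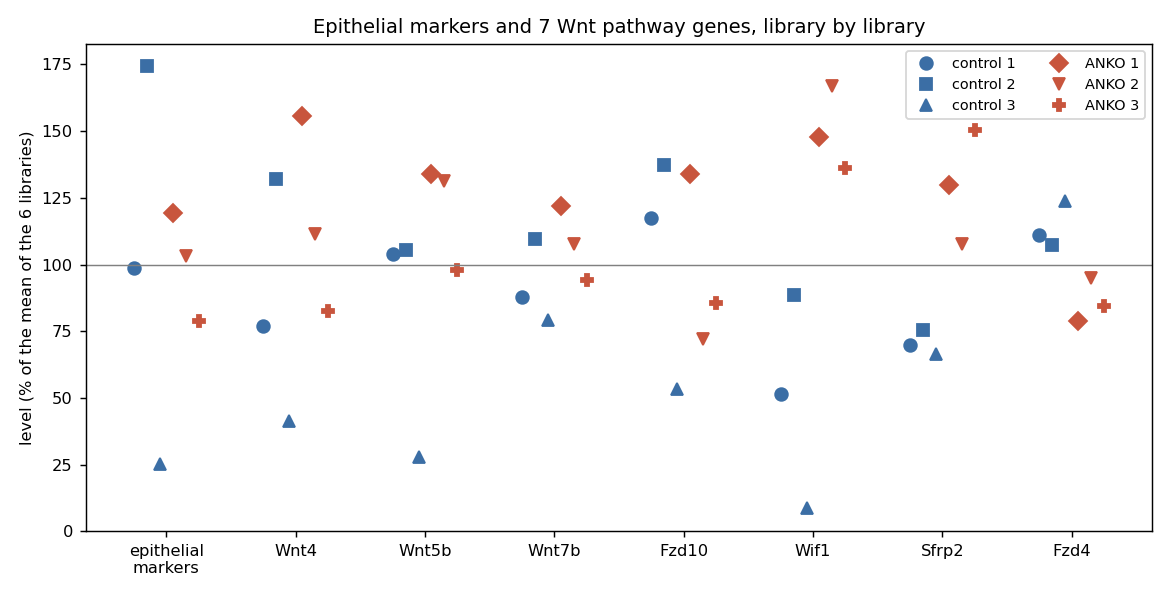
Level of the summed epithelial markers and of 7 members in each library, as a percentage of that item's mean over the 6 libraries (blue control, red ANKO, 1 symbol per mouse). Control 3 lies at 25.4% for the epithelial markers, 41.5% for Wnt4, 27.9% for Wnt5b, 53.5% for Fzd10 and 8.64% for Wif1, while for Sfrp2 all controls lie at 66.5% to 75.3%.

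All 10 Frizzled receptors were tested and 0 passed in either direction, with 2 higher and 1 lower at an unadjusted p under 0.05, where 6.03% of all features were higher and 6.90% lower. The 1 lower of 10 is near that background. Limma-voom called none, and DESeq2 called 1, Fzd4. Fzd4 (chromosome 7, 89404355 to 89413134), the receptor for Wnt ligands and for norrin in blood vessels, was the most abundant per kilobase in controls. It stood at 141, 136 and 158 CPM in controls and 100, 121 and 107 CPM in ANKO. Each ANKO library lay below all controls, a ratio of 0.754 to controls (log2 fold change -0.41, SE 0.0991, interval -0.63 to -0.18, adjusted p = 0.109; DESeq2 adjusted p = 0.0302). The 9 endothelial markers summed to 949, 920 and 1061 CPM in controls and 832, 884 and 784 CPM in ANKO, the log2 fold change was below 0 for all 9 (median -0.16), and 0 passed the test. Among them Robo4 had the smallest p (log2 fold change -0.34, adjusted p = 0.164). Of the 12 adipocyte markers, given above, 4 were called lower, while Slc2a4 had a log2 fold change above 0 (0.15). The part of either cell type in the values of Fzd4 was not tested.

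Fzd7 and Fzd3 lay higher in every ANKO library than in any control. Fzd7, which is close in sequence to Fzd1 and Fzd2, was at 44.0, 47.6 and 34.0 CPM in controls and 66.6, 50.03 and 52.4 CPM in ANKO (log2 fold change 0.43, SE 0.156, adjusted p = 0.289). Fzd3, known for its part in axon guidance and cell polarity, was at 9.20, 8.21 and 6.39 CPM in controls and at 11.1, 11.2 and 11.2 CPM in ANKO (log2 fold change 0.49, SE 0.165, adjusted p = 0.239). Fzd1 was at 48.5 ± 8.43 and 54.7 ± 6.83 CPM (log2 fold change 0.17, interval -0.17 to 0.51) and Fzd2 at 13.4 ± 0.64 and 14.5 ± 2.30 CPM (0.11, interval -0.23 to 0.45). Fzd5, Fzd6 and Fzd8 had log2 fold changes of -0.04, -0.05 and -0.05 with standard errors of 0.167, 0.162 and 0.188, and all overlapped between groups. Fzd9 was scarce and uneven, with 24, 15 and 8 counts in controls and 48, 10 and 4 in ANKO; its log2 fold change of 0.25 became -1.23 without ANKO 1.

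The sum of the Frizzled genes per kilobase hardly differed between groups, while the shares of Fzd4, Fzd7 and Fzd3 in it did not overlap. It was 53.6, 59.6 and 55.8 CPM per kilobase in controls and 56.8, 54.3 and 56.9 in ANKO. Fzd4 made up 39.2%, 34.0% and 42.1% of it in controls and 26.3%, 33.1% and 28.1% in ANKO, lower in each ANKO library. Fzd7 made up 18.1%, 17.6% and 13.4% in controls and 25.9%, 20.3% and 20.3% in ANKO. The small share of Fzd3 was 0.894% to 1.34% in controls and 1.53% to 1.61% in ANKO. Fzd1 stood at 17.3% to 22.5% in controls and 20.5% to 26.1% in ANKO, with overlap. These shares are taken within a library and do not depend on the scaling between libraries; they are descriptions without a test. Fzd4 was the largest share in every library, but Fzd7 came close to it in ANKO 1 (25.9% beside 26.3%) and Fzd1 in ANKO 3 (26.1% beside 28.1%).

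**Figure D3:**
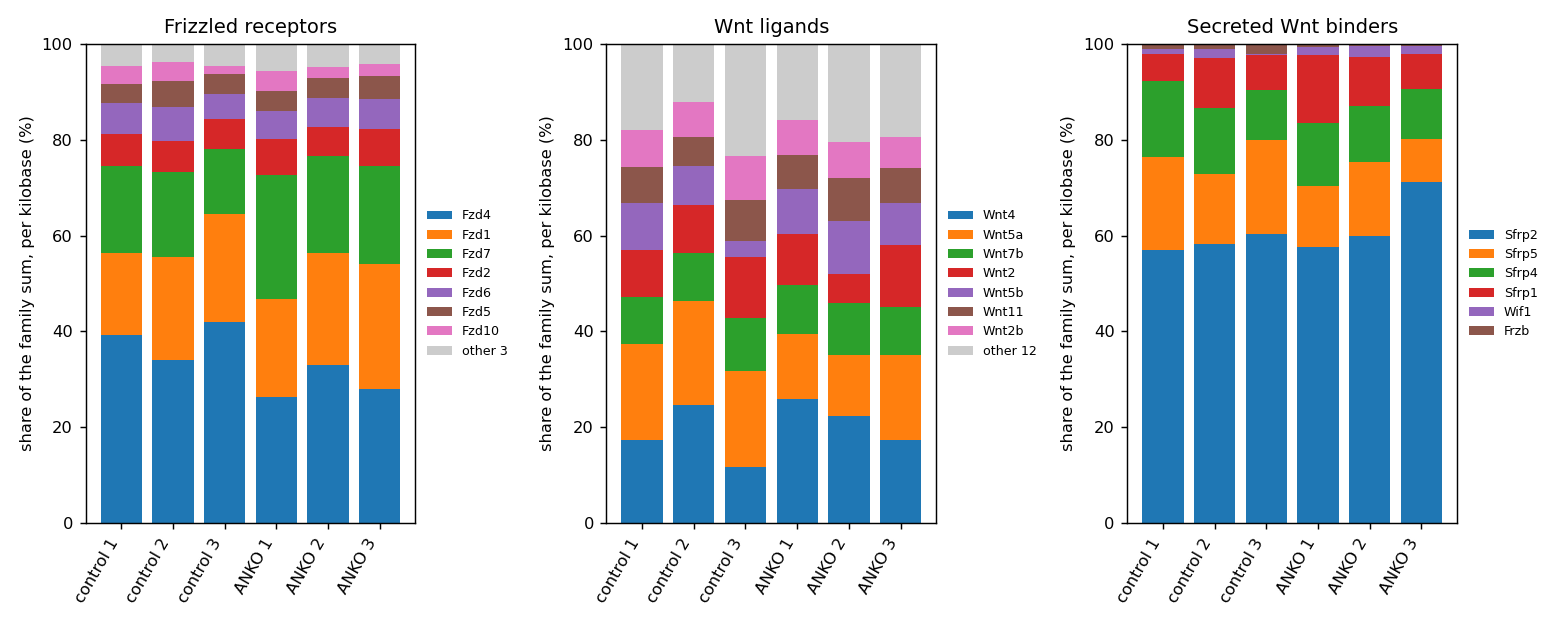
Share of each gene in the summed counts per kilobase of its family (vertical axis, percent) in each of the 6 libraries, for the Frizzled receptors, the Wnt ligands and the secreted Wnt binders. Fzd4 takes 34.0% to 42.1% of the Frizzled sum in controls and 26.3% to 33.1% in ANKO, and Sfrp2 takes more than all other secreted binders together in every library.

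The LRP co-receptors were abundant and close to each other per kilobase. Lrp6 stood at 245, 261 and 240 CPM in controls and 246, 242 and 213 CPM in ANKO, 18.2 and 17.1 CPM per kilobase (log2 fold change -0.09, interval -0.30 to 0.12). Lrp5 was at 167, 176 and 128 CPM in controls and 174, 160 and 120 CPM in ANKO, 16.1 and 15.6 CPM per kilobase (log2 fold change -0.05, interval -0.44 to 0.34). Its lowest values came from 1 library of each group. Both intervals exclude a change of 1.5-fold in either direction.

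Inside the cell, Ctnnb1, the gene of beta-catenin, was the most abundant member. It had 314, 352 and 285 CPM in controls and 317, 339 and 329 CPM in ANKO, with a log2 fold change of 0.05 (interval -0.18 to 0.29, adjusted p = 0.902). The transcription factor Tcf7l2 was at 98.2, 110 and 88.9 CPM in controls and 101, 97.5 and 82.6 CPM in ANKO (log2 fold change -0.08, interval -0.34 to 0.18). Axin2, a scaffold of the beta-catenin destruction complex and a widely used readout of beta-catenin signalling, stood at 28.3, 22.5 and 24.2 CPM in controls and 29.4, 25.4 and 28.7 CPM in ANKO. The groups overlapped (log2 fold change 0.15, SE 0.119, interval -0.12 to 0.43, adjusted p = 0.685). These RNA levels say nothing of the amount or place of the beta-catenin protein.

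**Figure D4:**
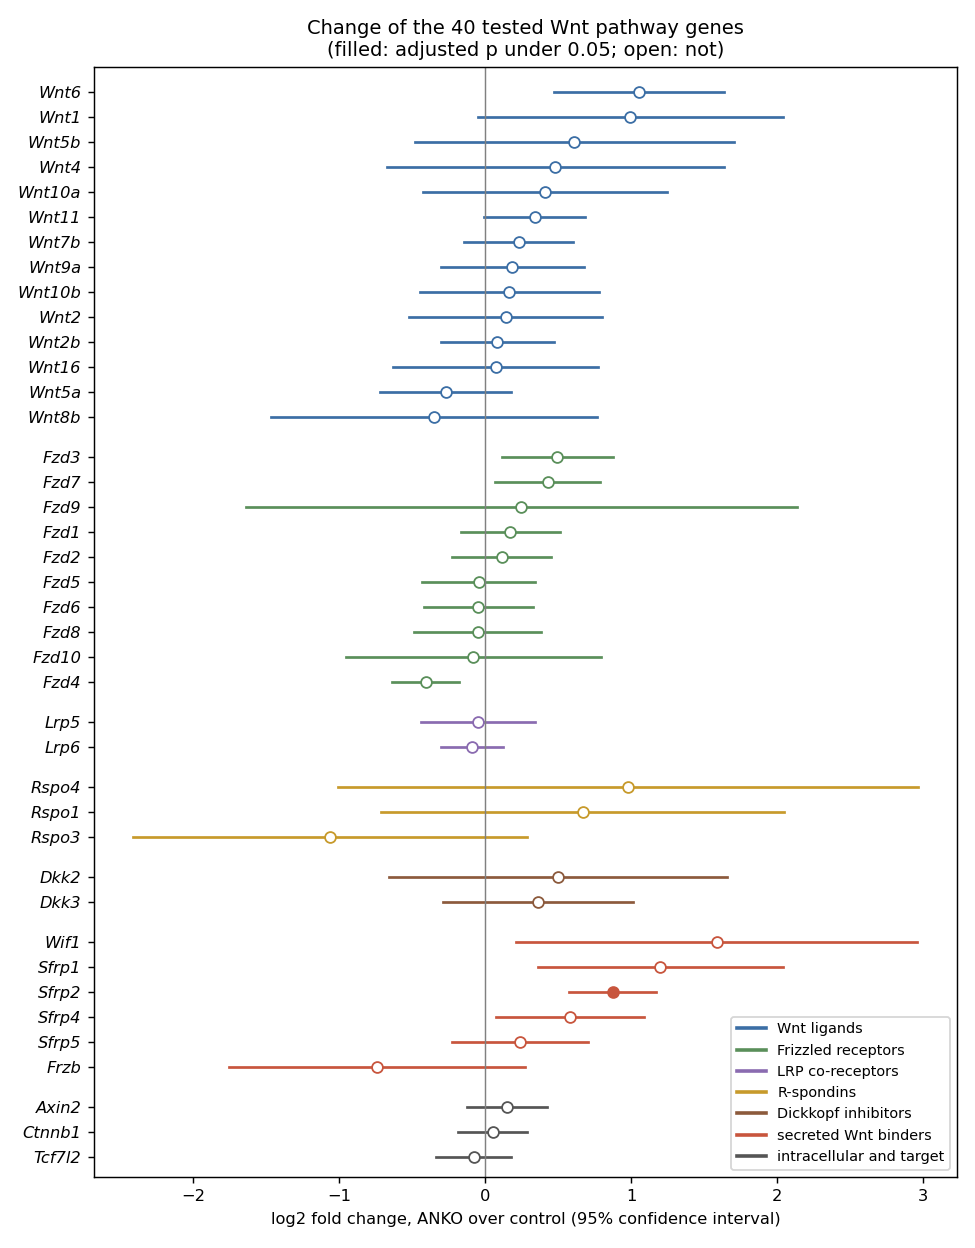
Log2 fold change (ANKO over control, horizontal axis) of the 40 tested members with 95% confidence intervals, grouped by role and sorted within each group; a filled point marks an adjusted p under 0.05. Sfrp2 is the only filled point, at 0.87 with an interval of 0.57 to 1.17, and the widest intervals belong to scarce genes such as Rspo4 and Fzd9.

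Over all 40 tested members, 7 were higher (17.5%) and 1 lower (2.5%) at an unadjusted p under 0.05, against 6.03% and 6.90% of all features. Groups without overlap were seen for 9 members with ANKO higher (22.5%) and 1 with ANKO lower, against 9.19% and 10.2% of all features. Of these 9, all but Sfrp1 and Wnt6 had their lowest value in control 3. The log2 fold change was above 0 for 28 of 40 (70%), with a median of 0.18, against 50.1% of all features and a median of 0.00068. The filter weighs on these counts: in Wif1, Wnt1 and Rspo1 all 3 ANKO libraries but not all controls reached the minimum level, and in Frzb the reverse. All members were read in the same 6 libraries, so they are not independent of each other.

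The rest of the pathway was read from 4 lists of other genes. Of 20 tested genes of Wnt secretion and receptor regulation 0 were higher and 1 was lower, Apcdd1, with a median log2 fold change of 0.27. Of all features tested, 0.488% were called higher and 1.10% lower. At an unadjusted p under 0.05, 4 of these 20 genes were higher and 1 lower, against 6.03% and 6.90% of all features. Apcdd1 encodes a membrane protein that binds Wnt and LRP and inhibits the pathway. It fell from 97.7, 92.3 and 128 CPM in controls to 37.4, 32.0 and 42.2 CPM in ANKO (log2 fold change -1.51, SE 0.153, adjusted p = 0.00618). All ANKO libraries lay far below the controls, and the adjusted p was at most 0.0302 without any 1 library. Of 40 genes of the destruction complex and the nuclear effectors 0 passed in either direction, 3 were higher and 3 lower at an unadjusted p under 0.05 (shares near the 6.03% and 6.90% of all features), and their median lay at -0.01 on the log2 scale. Pygo1 had the smallest p of them. This coactivator of beta-catenin stood at 15.1, 15.2 and 18.9 CPM in controls and 10.2, 8.66 and 10.6 CPM in ANKO (log2 fold change -0.74, SE 0.149, adjusted p = 0.0601). Without the low-count filter edgeR called Pygo1 (adjusted p = 0.0332), and so did DESeq2 (adjusted p = 0.00249).

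Of 22 genes of the planar polarity and calcium branch 0 were called higher and 1 lower, against 0.488% and 1.10% of all features. Their median log2 fold change was 0.004. At an unadjusted p under 0.05, 1 was higher and 2 were lower, shares near the 6.03% and 6.90% of all features. The gene called lower was Celsr2, a cadherin-like receptor of cell polarity. It fell from 170, 250 and 225 CPM to 107, 94.5 and 93.4 CPM (log2 fold change -1.13, SE 0.144, adjusted p = 0.0119). Without ANKO 2 or ANKO 3 this call was lost (adjusted p = 0.0563 and 0.0681), as it was with a replicate block (adjusted p = 0.0533). Of 24 tested genes known as beta-catenin targets 1 was called higher and 1 lower, with a median log2 fold change of 0.30. At an unadjusted p under 0.05, 7 of the 24 were higher and 2 lower, against 6.03% and 6.90% of all features. Nrcam, a neuronal cell adhesion gene, rose from 2.06, 2.52 and 2.83 CPM to 5.63, 4.85 and 5.58 CPM (log2 fold change 1.12, SE 0.213, adjusted p = 0.0499). It was not called without any 1 of the 6 libraries (adjusted p 0.085 to 0.175). The target called lower was Apcdd1 again, which belongs to this list and to that of secretion and receptor regulation. The target Ccn5, named after its values were seen, had the widest gap of its list that missed the threshold, at 8.71, 13.2 and 3.81 CPM in controls and 29.9, 59.9 and 29.7 CPM in ANKO (log2 fold change 2.22, SE 0.534, adjusted p = 0.162). Ccn5 was called with a replicate block (adjusted p = 0.0299) and by DESeq2 (adjusted p = 3.54e-06).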

How the data were processed

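Total RNA from subcutaneous WAT was depleted of ribosomal RNA and sequenced, per the labels' protocols. The authors deposited 1 table of raw gene counts; STAR 2.0.4b, Subread and featureCounts 1.45 with GRCm38 are named in the submitters' processing notes, and for the annotation release and the strand setting nothing is given in the sources used here. Of 40757 lines, 329 exact repeats were removed. edgeR 4.0.16 (R 4.3.3) with TMM scaling, filterByExpr (minimum count 10, total 15) and the robust quasi-likelihood test compared 3 ANKO with 3 control mice, with Benjamini-Hochberg adjustment over 19272 features at 0.05. Standard errors were taken as the size of the log2 fold change over the root of F, and their median over all features was 0.186. The procedure was tested on simulated counts.

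Levels per kilobase used exon lengths of GENCODE M21. Alternatives were other scalings, filters, DESeq2 1.42.0, limma 3.58.1 (voom), a skeletal muscle covariate, a replicate block and leaving out each library. The members and gene lists were chosen with earlier results of these data known. All members were described; of the pathway lists, called genes or else the smallest p were named, besides Nampt and cell type markers. Lgr5 and Ccn5 fall outside this rule and were chosen after their values were seen, as was the antisense gene over Sfrp2. Gpc3 and Plcb1, genes of the pathway lists, are named only for calls under another setting.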

Additional observations from a re-analysis of the deposited data

How the results depend on the processing

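Sfrp2 was the 1 member called higher under the RLE, upper-quartile and unscaled fits, both other filters, the non-robust fit, the muscle covariate and limma-voom. With a replicate block 0 members were called higher (adjusted p of Sfrp2 0.0646), and DESeq2 called 3 higher (Sfrp1, Sfrp2 and Wnt6) and 1 lower (Fzd4). Leaving out 1 library gave 0 to 1 members higher. Fewer mice remain in those fits; for the other settings the cause was not tested.

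Of all features, 94 higher became 167 with no low-count filter, 62 with the replicate block, 51 with the muscle covariate and 388 with DESeq2, and 20 to 107 without 1 library. The 212 lower became 114 with the muscle covariate and 498 with DESeq2, and 55 to 221 without 1 library. Of the pathway list genes, 1 higher became 0 with the non-robust fit, the muscle covariate and limma-voom, 6 with DESeq2, and 0 to 1 without 1 library. The 2 lower became 3 with no low-count filter (Pygo1 added), 1 with the replicate block (Celsr2 lost), 4 with DESeq2, and 1 to 2 without 1 library. Like counts could hold other genes. With the replicate block the 1 higher was Ccn5, and Nrcam was lost. Without ANKO 2 the 1 higher was Gpc3, and the 2 lower were Apcdd1 and Plcb1, with Celsr2 lost.

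The sample titles number the mice but do not say whether same-numbered mice were paired. Same-numbered control and ANKO libraries deviated from their group means with correlations of 0.0746, -0.0333 and -0.0435. Not every library correlated best with its own number. With 3 libraries per group, these correlations cannot decide whether the mice were paired.

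The sign of the log2 fold change turned for 14 members, none of them called. Rspo4 was -0.149 with the muscle covariate, and Fzd9 was -0.136 with the replicate block and -0.293 with limma-voom. Without 1 library the range was -0.0078 to 0.13 for Ctnnb1, -0.0073 to 0.42 for Wnt2, -0.17 to 0.13 for Fzd6, -0.040 to 0.38 for Wnt10b, -0.17 to 0.096 for Lrp5, -0.14 to 0.0053 for Tcf7l2 and -0.021 to 0.20 for Wnt2b. It was -0.029 to 0.20 for Wnt16, -0.40 to 1.504 for Rspo4, -0.15 to 0.17 for Fzd8, -0.66 to 0.14 for Wnt8b, -0.16 to 0.14 for Fzd5, -1.23 to 0.72 for Fzd9 and -0.38 to 0.18 for Fzd10. Scarce members such as Rspo4 and Fzd9, with few counts per library, moved the most among these.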
